A study of Mus musculus with 8 samples.

Results

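The 10 genes of triglyceride esterification were followed in livers with liver-specific deletion of Zfp36l1, and each was found by its symbol in the deposited count table, 10 of 25239 genes in all. They are Acsl3 (acyl-CoA synthesis), Gpam (acylation of glycerol-3-phosphate), Agpat2 and Agpat3 (acylation of lysophosphatidate), the lipins Lpin1, Lpin2 and Lpin3 (removal of phosphate), Mogat1 (acylation of monoacylglycerol) and Dgat1 and Dgat2 (acylation of diacylglycerol). Whole livers of adult males were sequenced as 4 knockout and 4 control libraries. The knockout libraries are labelled Zfp36l1 fl/fl Alb-Cre+, that is, loxP-flanked Zfp36l1 alleles with a Cre recombinase under the Alb promoter. That promoter is active in hepatocytes and in the fetal progenitors they share with bile duct cells, and deletion by cell type was not measured here. The control libraries are labelled Zf36l1 fl/fl, in that spelling, carry the same flanked alleles and are given no Cre, so Cre and the deletion cannot be told apart. The labels name no alcohol, diet or other treatment for these libraries, and give no strain, feeding state or hour of collection.

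Triglyceride is built on a glycerol backbone at the endoplasmic reticulum and the outer mitochondrial membrane. Fatty acids are first activated to acyl-CoA, then added one at a time to glycerol-3-phosphate, with a phosphatase step in between that yields diacylglycerol, the last intermediate before triglyceride and a branch point to phospholipids. A second entry, prominent in the intestine and low in lean mouse liver, acylates monoacylglycerol directly. In the liver the product is stored in lipid droplets or secreted in very low density lipoprotein. ZFP36L1 binds AU-rich elements in the 3′ ends of mRNAs and promotes their decay.

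The sequence ZFP36 proteins bind best has the core UAUUUAU, written here in DNA letters as TATTTAT. It was searched in the 3′ UTR of 1 principal GENCODE M21 transcript a gene, and 3 of the 10 esterification genes held it, against 28.0% of 13695 tested genes (those with 20 or more annotated 3′ UTR bases). Lpin1 held 2 copies in 2744 bases, while Agpat3 and Dgat2 held 1 each in 4509 and 888 bases. The 4 sites are shown with their flanks because they are the only matches in these 3′ UTRs, and the rest of the transcripts was not searched. The 7 bases of the core are in capitals (GRCm38, all on the minus strand, at chr12:16537745-16537774, chr12:16537469-16537498, chr10:78269753-78269782 and chr7:99154301-99154330 in the order given).

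Lpin1 site 1: caaggctgggcTATTTATgccttaacgcat
Lpin1 site 2: tttgcagatatTATTTATttctttactgtc
Agpat3: tgctctacttgTATTTATtgtctcagagta
Dgat2: gtggaggctgaTATTTATgggccttggtgg

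The Agpat3 site lies in 1 of 6 basic transcripts, which at 5980 bases is longer than the 3439 bases that the deposited table gives the gene. For Lpin1, 4 of 5 basic transcripts held the core in the 3′ UTR. No match was found in Gpam, Agpat2, Lpin2, Lpin3, Dgat1, Acsl3 or Mogat1, whose 3′ UTR has 73 bases. Of these 3′ UTRs, those of Gpam, Lpin2 and Lpin3 held the shorter ATTTA 3 times each and that of Acsl3 5 times. Agpat2, Dgat1 and Mogat1 held ATTTA 0 times. The share of tested genes with ATTTA was not computed. A match is a description of the letters and not evidence of binding.

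RefSeq promoters (GRCm38.p6, 250 bases before to 50 after a start) were matched for 8 of the 10 genes, with 12 starts in all. The promoters of Gpam and Mogat1 are shown because these genes had the lowest p-values of the 10. Gpam has 2 annotated starts, and the distal one is printed (chr19:55127189-55127488, minus strand), followed by the start of Mogat1 (chr1:78510810-78511109, plus strand). Capitals mark the letters CCAAT, read on either strand. The match lies at −74 from the start in Gpam and at position 25, after the start, in Mogat1. Here too a match describes the letters and is not evidence of binding.

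Gpam: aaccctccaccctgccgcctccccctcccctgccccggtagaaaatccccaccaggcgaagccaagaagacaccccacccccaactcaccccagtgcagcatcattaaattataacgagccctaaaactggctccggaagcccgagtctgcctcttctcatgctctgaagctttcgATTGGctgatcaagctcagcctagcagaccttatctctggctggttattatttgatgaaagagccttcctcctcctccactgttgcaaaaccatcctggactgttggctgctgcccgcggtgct
Mogat1: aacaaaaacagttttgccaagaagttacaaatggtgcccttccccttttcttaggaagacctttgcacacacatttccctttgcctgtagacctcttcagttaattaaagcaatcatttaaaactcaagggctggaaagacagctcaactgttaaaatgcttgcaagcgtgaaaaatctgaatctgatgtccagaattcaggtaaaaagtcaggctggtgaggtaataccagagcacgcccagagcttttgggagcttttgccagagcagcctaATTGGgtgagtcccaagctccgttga

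On both strands, CCAAT occurred in 4 of the 12 promoters, against 37.4% of all 32851 promoters in the table. The E-box CACGTG occurred in 2, one each of Lpin2 and Lpin3, against 7.2% of all. The sterol regulatory element letters TCACNCCAC occurred in 0 of the 12, against 1.2% of all. Elements that differ from these letters were not searched, so the lack of a match does not show that such an element is absent.

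Total counts were 120200618 to 140582588 in knockout and 104842873 to 132017092 in control libraries. Zfp36l1 averaged 65.1 ± 8.97 CPM in knockout and 259 ± 47.9 CPM in control livers (SD, n = 4 each), and the groups did not overlap, where CPM means TMM-scaled counts per 1e6 counts. The hepatocyte markers Alb, Apoa1, Ttr, Cps1, Hnf4a and Asgr1 summed to 79730 to 89770 CPM in knockout and 67800 to 74390 CPM in control libraries, with 0 of the 6 past the test. These sums were mostly Alb, at 68170 to 75940 CPM in knockout and 54750 to 62350 CPM in control libraries. The log2 fold changes of Alb and Ttr were 0.32 and 0.41. Those of Apoa1, Cps1, Hnf4a and Asgr1 were −0.25, −0.20, −0.05 and −0.11. The part of the difference in sums in the results was not tested. Esterification genes are strongly expressed in fat. Of the 6 adipocyte markers the fat-specific Adipoq had 0 to 6 counts, Plin1 0 to 2 and Retn 0 to 8 counts per library, with Lep at 0 throughout. Cfd had 127, 254, 213 and 148 counts in knockout and 175, 32, 23 and 338 counts in control libraries 1 to 4. Like Mogat1, Cfd was higher in knockout libraries 2 and 3 and in control libraries 1 and 4 than in the rest of each group. That likeness was picked after values were seen, and the share of tested genes with such an order was not computed. Between the groups Cfd had a log2 fold change of 0.29 (adjusted p = 0.868). The adipocyte marker sums were 2086 to 3618 CPM in knockout and 2675 to 3974 CPM in control libraries. They were nearly all Car3, which hepatocytes express as well, and of the 2 tested adipocyte markers 0 changed. The part of fat tissue in the results was not tested. Cholangiocyte markers summed to 30.2 to 44.7 CPM in knockout and 42 to 56.9 CPM in control libraries, and these sums were mostly Spp1. Of the 5, 1 was lower, Sox9 (log2 fold change −1.18, adjusted p = 0.0242). The others did not pass, with Krt19 and Krt7 at 0.10 and 0.20 and Epcam and Spp1 at −0.25 and −0.24. The part of cholangiocyte markers in the results was not tested. The neutrophil markers S100a8, S100a9 and Elane, named after values were seen, were higher in libraries 1 and 4 than in libraries 2 and 3 of each group. S100a9 had 22.7, 0.105, 0.0434 and 9.66 CPM in knockout and 1.72, 0.0949, 0.043 and 2.17 CPM in control libraries 1 to 4. Of the 3 tested neutrophil markers 0 passed, and the part of neutrophils in the results was not tested. Whole liver was sequenced, so fewer cells of a type and less RNA per cell cannot be told apart.

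Of the 10 esterification genes, all of which passed the count filter, 1 rose in knockout livers and 0 fell at an adjusted p under 0.05. That gene was Mogat1, and among all 14861 tested genes 5.39% were called, 3.51% higher and 1.88% lower. An unadjusted p under 0.05 was found for 5 (Mogat1, Gpam, Lpin2, Lpin1 and Agpat3), where 21.5% of tested genes did. Of the 10 log2 fold changes, 7 lay above 0 and 3 below, with a median of 0.17 against −0.01 over all tested genes. Only Mogat1 had groups that did not overlap, against 15.1% of tested genes. Where no other test is given, adjusted p-values come from the quasi-likelihood test of edgeR, adjusted by Benjamini-Hochberg over all tested genes. Fold changes are knockout over control on the log2 scale, each with its standard error (SE). Nothing in the labels ties each library to a separate mouse, and the p-values then reflect only how far these libraries spread.

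Which genes passed depended on the model. Same-numbered knockout and control libraries varied together over all genes, and with the replicate number as a block 2 genes rose, Gpam and Lpin2, while Mogat1 did not pass (6.92% of tested genes called). DESeq2 without the block called 3, namely Gpam, Lpin2 and Mogat1 (11.7% called). With total counts as the only scaling, the median over all genes was −0.12 on the log2 scale. That fit gave 392 higher and 1338 lower genes in place of 521 and 280 (11.6% called), and still called Mogat1 alone among the 10.

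**Figure D1:**
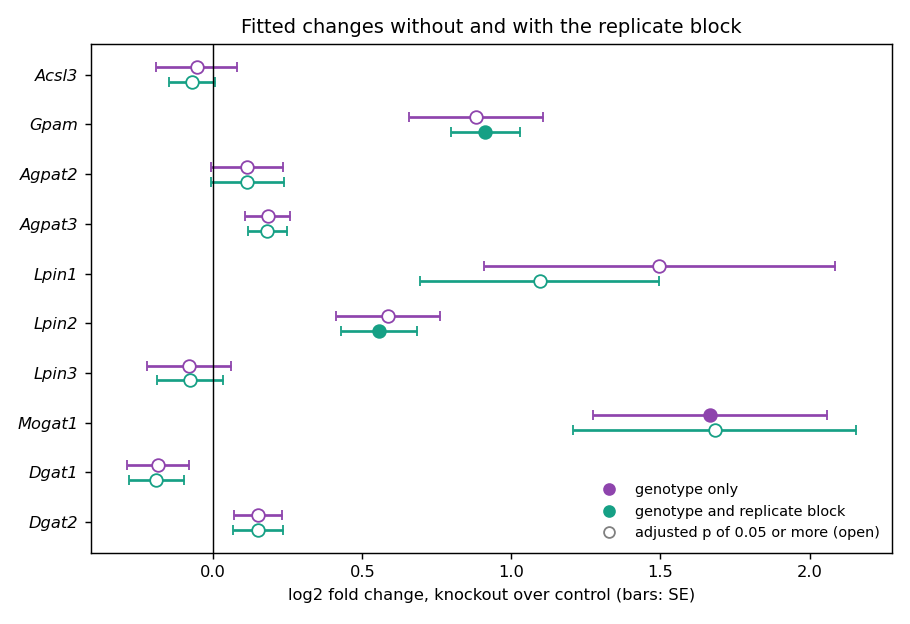
Log2 fold change of knockout over control (horizontal axis, bars are SE) for each of the 10 genes, in the fit with genotype only and in the fit with the replicate number as a block; filled points have an adjusted p under 0.05. Mogat1 is filled in the first fit, Gpam and Lpin2 in the second, and Acsl3, Lpin3 and Dgat1 lie below 0 in both.

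Levels between genes were compared per length, as RPKM, that is, CPM per kilobase of the deposited gene length. Dgat2 was the most abundant over the 8 libraries (mean 226 RPKM), followed by Gpam (165), Agpat2 (123), Agpat3 (67.7), Lpin2 (57.3) and Lpin1 (38.3). Acsl3 (12.4), Dgat1 (8.51), Lpin3 (2.06) and Mogat1 (1.58 RPKM) were far lower. Agpat2 over Agpat3, Lpin1 over Acsl3 and Dgat1 over Lpin3 held in all 8 libraries. The other neighbours changed places in at least 1 library. Gpam stood above Agpat2 in all 4 knockout libraries but in 2 of 4 control libraries, and Dgat2 stood above Gpam in 2 of 4 knockout and in all 4 control libraries. Lpin3 stood above Mogat1 in 1 of 4 knockout and in all 4 control libraries.

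**Figure D2:**
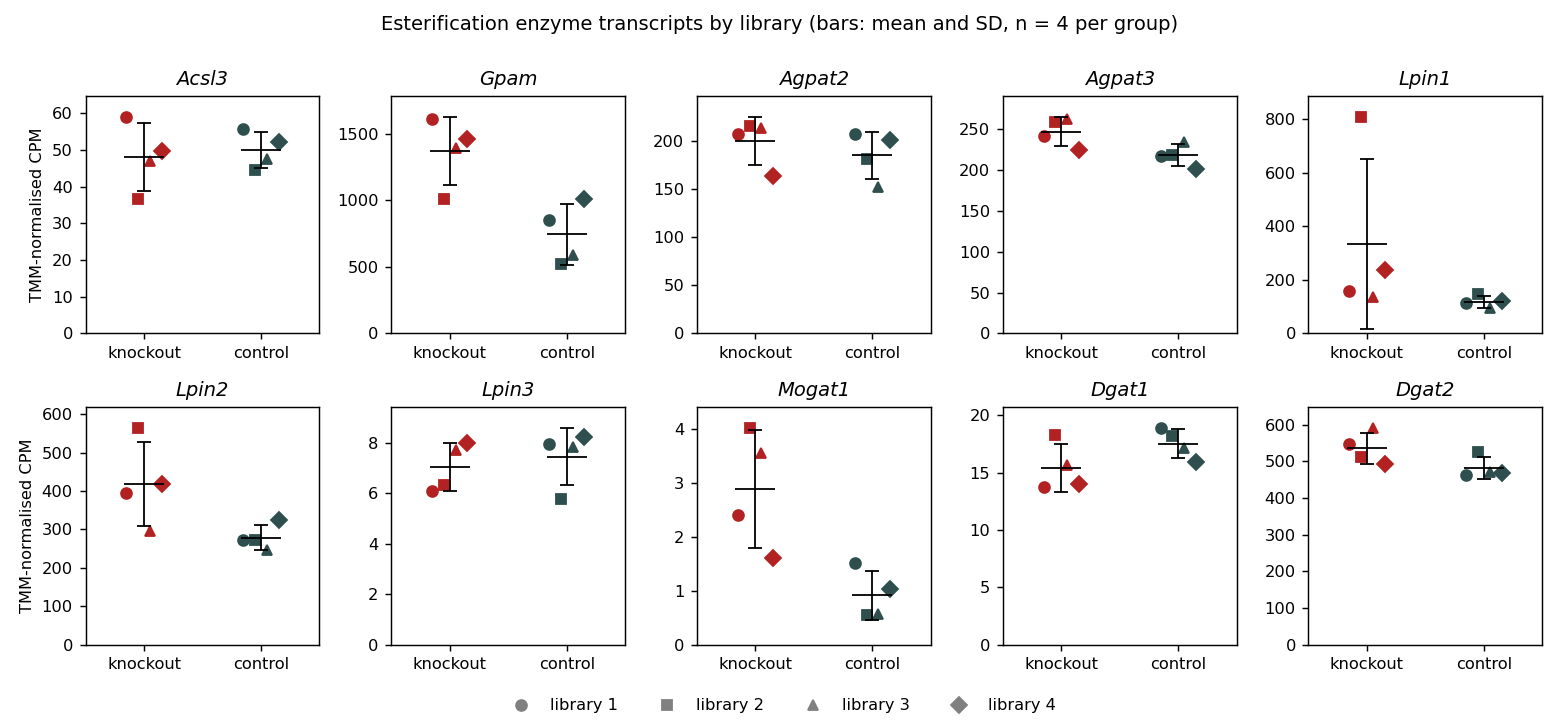
TMM-normalised CPM of the 10 genes in knockout (left) and control (right) libraries, each panel on its own axis from 0, with marker shape giving the library number and bars the mean and SD (n = 4). All Mogat1 knockout points lie above the control points, those of Gpam meet the controls at 1011 and 1014 CPM, and Lpin1 has 1 knockout library at 808 CPM.

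Acsl3, an acyl-CoA synthetase of the endoplasmic reticulum and lipid droplets (chromosome 1, 78657825 to 78707743, plus strand, GRCm38), had 59.0, 36.6, 47.1 and 49.7 CPM in knockout libraries 1 to 4. Control libraries 1 to 4 had 55.7, 44.5, 47.5 and 52.1 CPM. The groups overlapped fully, and the log2 fold change of −0.06 (SE 0.13, adjusted p = 0.847) moved to 0.00 without control library 1 and to 0.06 without knockout library 2. Acsl3 overlaps Utp14b on the same strand, and reads from any shared exon could have been assigned to either.

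Gpam encodes the mitochondrial glycerol-3-phosphate acyltransferase, which catalyses the committing step of glycerolipid synthesis (chromosome 19, 55067268 to 55127238, minus strand). The knockout libraries had 1615, 1011, 1394 and 1459 CPM. The control libraries had 852, 520, 589 and 1014 CPM. The groups overlapped in 1 place, where knockout library 2 lay just under control library 4, and every other knockout library exceeded every control library. The means were 1370 ± 256 and 744 ± 230 CPM in knockout and control livers, with a log2 fold change of 0.88 (SE 0.23, adjusted p = 0.0576). With the replicate block the change was 0.91 (SE 0.12, adjusted p = 0.00625). Within same-numbered libraries the knockout exceeded the control 1.90-fold, 1.95-fold, 2.37-fold and 1.44-fold for numbers 1 to 4. Without control library 4 the genotype fit gave 1.07 with adjusted p = 0.0331, and the other 7 fits that each left out 1 library gave adjusted p-values up to 0.148. Counts were summed over the gene, so its 2 annotated starts were not separated.

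Neither lysophosphatidate acyltransferase gene passed the test. Agpat2, mutated in human congenital lipodystrophy (chromosome 2, 26593057 to 26604417, minus strand), had 208, 216, 214 and 164 CPM in knockout libraries and 207, 181, 152 and 201 CPM in control libraries. Its log2 fold change was 0.11 (SE 0.12, adjusted p = 0.624). Agpat2 overlaps Egfl7 on the opposite strand, and no strand setting is given in the sources used here, so reads of that partner cannot be told apart. Agpat3 (chromosome 10, 78269178 to 78352489, minus strand) had 242, 259, 263 and 225 CPM in knockout libraries and 218, 219, 235 and 202 CPM in control libraries. The Agpat3 difference was 0.18 on the log2 scale (SE 0.08, adjusted p = 0.201). Knockout exceeded control by 1.11-fold to 1.19-fold in all 4 same-numbered comparisons. With total counts alone as the scale the Agpat3 value was 0.07 (adjusted p = 0.624). On the per-length scale Agpat2 made up 63.8 ± 1.66% of the summed level of the 2 genes in knockout and 64.8 ± 4.46% in control livers. The log2 ratio of Agpat2 over Agpat3 differed by −0.07 between the groups (exact two-sided permutation test, p = 0.657), and by 0.01 without control library 4.

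The lipins are phosphatidate phosphatases that make diacylglycerol, and LPIN1 is also known as a transcriptional coactivator of fasting genes in mouse liver. Lpin1 (chromosome 12, 16535669 to 16610966, minus strand) had 157, 808, 137 and 238 CPM in knockout libraries. The control libraries had 113, 148, 93.4 and 120 CPM. Knockout library 2 stood far above the others of its group, and knockout library 3 lay under control library 2, so the groups overlapped. The fitted log2 fold change of 1.50 (SE 0.59, adjusted p = 0.196) was 0.58 without knockout library 2 (adjusted p = 0.19) and 1.10 with the replicate block (adjusted p = 0.199). On log2 CPM, knockout library 2 exceeded the next highest knockout library by 1.77, and 15 of the 14861 tested genes, Lpin1 included, did so by at least as much. Among controls, library 2 was also the highest for Lpin1.

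Lpin2 (chromosome 17, 71182560 to 71249817, plus strand), the predominant lipin of liver, had 394, 563, 296 and 419 CPM in knockout libraries. The control libraries had 272, 271, 247 and 324 CPM. Knockout library 3 lay under control library 4, and the other 3 knockout libraries exceeded all controls. The means were 418 ± 110 and 278 ± 32.3 CPM in knockout and control livers, with a log2 fold change of 0.59 (SE 0.17, adjusted p = 0.0875). With the replicate block the change was 0.56 (SE 0.13, adjusted p = 0.0443), and knockout exceeded control 1.20-fold to 2.08-fold in the 4 same-numbered comparisons. Leaving out knockout library 3 gave 0.72 (adjusted p = 0.0491), and the other single omissions gave adjusted p-values up to 0.182. Lpin3 (chromosome 2, 160880670 to 160906002, plus strand), which is low in liver, had 6.11 to 8.0 CPM in knockout and 5.79 to 8.23 CPM in control libraries (−0.08, SE 0.14, adjusted p = 0.78).

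**Figure D3:**
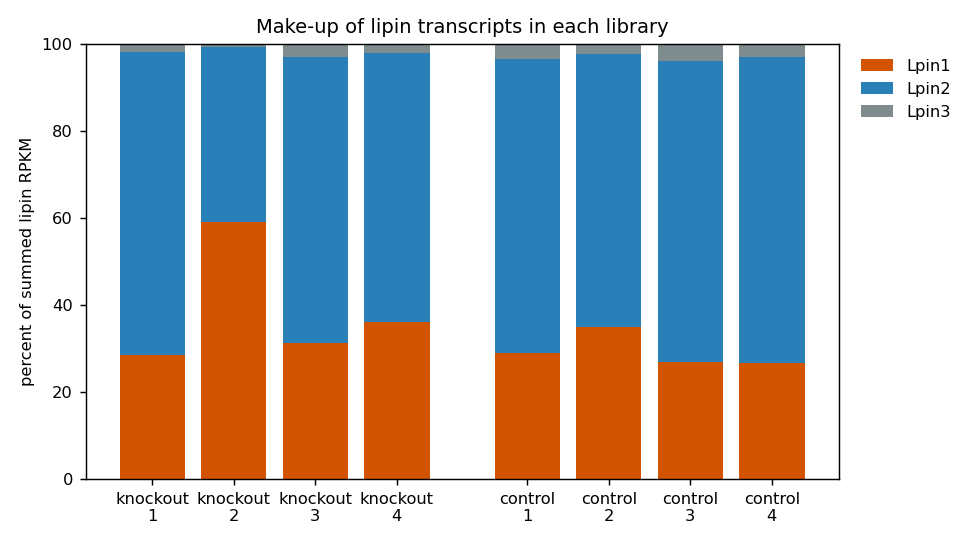
Share of Lpin1, Lpin2 and Lpin3 in the summed lipin RPKM of each library (percent, stacked to 100), with knockout libraries left of control libraries. Lpin2 is the largest part in 7 libraries, and Lpin1 reaches 59.1% in knockout library 2.

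By length-scaled level, Lpin1 made up 28.5%, 59.1%, 31.3% and 36.1% of lipin transcripts in knockout libraries 1 to 4, against 29.0%, 35.1%, 26.9% and 26.8% in control libraries. Lpin3 made up 0.778% to 2.97% in knockout and 2.31% to 3.80% in control libraries. The log2 ratio of Lpin1 over Lpin2 differed by 0.56 between knockout and control (exact two-sided permutation test over 70 assignments, p = 0.229), and by 0.16 without knockout library 2. The groups overlapped in this ratio.

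The enzymes of the last step did not pass the test. Dgat1 (chromosome 15, 76502015 to 76511953, minus strand), an acyltransferase of the membrane-bound O-acyltransferase family, had 13.7, 18.2, 15.7 and 14.0 CPM in knockout libraries and 18.8, 18.1, 17.1 and 15.9 CPM in control libraries. Its log2 fold change was −0.18 (SE 0.10, adjusted p = 0.338). Dgat2 (chromosome 7, 99153658 to 99182719, minus strand), which belongs to a different protein family and works mainly on newly made fatty acids in liver, had 547, 513, 590 and 493 CPM in knockout libraries and 462, 526, 472 and 469 CPM in control libraries. The Dgat2 difference was 0.15 on the log2 scale (SE 0.08, adjusted p = 0.314) and 0.04 under total counts alone. Dgat2 made up 96.7 ± 0.502% of the summed length-scaled level of both genes in knockout and 95.9 ± 0.33% in control livers. As a ratio per length, Dgat2 exceeded Dgat1 34.2-fold, 24.2-fold, 32.4-fold and 30.2-fold in knockout libraries, against 21.1-fold, 24.9-fold, 23.7-fold and 25.3-fold in control libraries. Knockout library 2 lay among the controls and the other 3 above them. The log2 ratio differed by 0.34 (exact two-sided permutation test, p = 0.0857, where 0.0286 is the smallest this design allows), and by 0.44 without knockout library 2 (exact p = 0.0286, the smallest possible there). Leaving out any other library gave exact p-values of 0.0857 to 0.114. Adjusted over the 3 ratios computed, the p-values were 0.257 for the Dgat pair, 0.344 for the lipins and 0.657 for the Agpat pair.

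Mogat1, an acyltransferase of the same protein family as Dgat2 that uses monoacylglycerol (chromosome 1, 78510991 to 78538173, plus strand), was the one gene of the 10 that rose, with 2.40 ± 0.908 RPKM in knockout and 0.758 ± 0.376 RPKM in control livers, where Lpin3 had 2.00 ± 0.273 and 2.12 ± 0.319 RPKM in knockout and control livers. It had 307, 460, 491 and 213 counts in knockout libraries and 163, 69, 80 and 126 counts in control libraries. These correspond to 2.41, 4.01, 3.55 and 1.60 CPM in knockout and 1.51, 0.545, 0.573 and 1.03 CPM in control libraries. All knockout libraries exceeded all controls, although knockout library 4 stood close to control library 1. The means were 2.89 ± 1.09 and 0.914 ± 0.453 CPM in knockout and control livers, a log2 fold change of 1.67 (SE 0.39, adjusted p = 0.0427). With the replicate block the change was 1.68 (SE 0.47, adjusted p = 0.0966). Within same-numbered libraries knockout over control was 1.60-fold and 1.55-fold for numbers 1 and 4, but 7.36-fold and 6.20-fold for numbers 2 and 3. The call held without control library 1 or knockout library 4 (adjusted p = 0.0414 and 0.0314). It was lost without control library 2 (0.0972), control library 3 (0.0769), control library 4 (0.0691), knockout library 1 (0.084), knockout library 2 (0.102) or knockout library 3 (0.109), with log2 fold changes of 1.47 to 2.01 in these 8 fits.

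**Figure D4:**
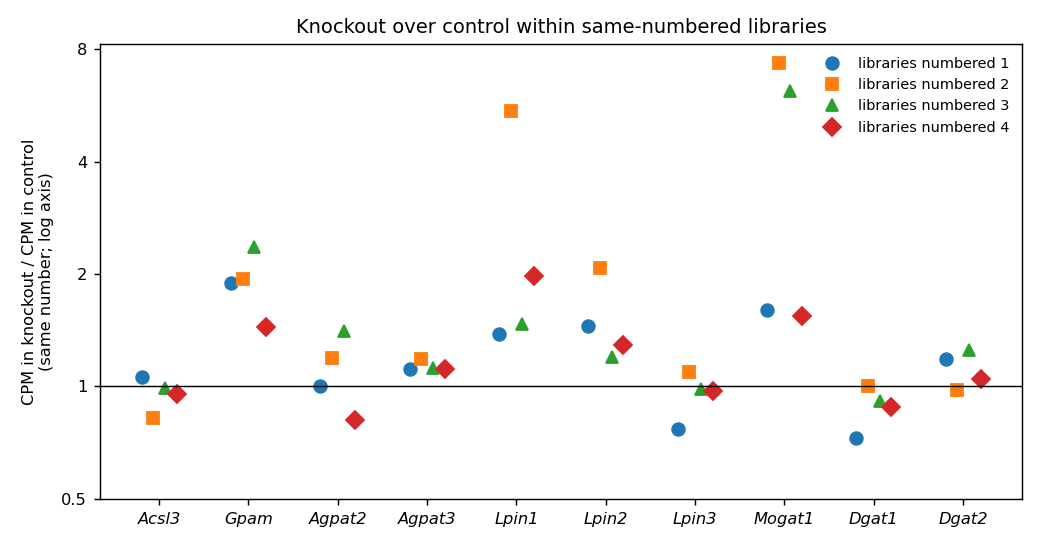
CPM in the knockout library over CPM in the control library of the same number, for each of the 10 genes (log axis, 1 is no difference). Gpam, Agpat3, Lpin1, Lpin2 and Mogat1 lie above 1 for all 4 numbers, Agpat3 between 1.11 and 1.19 and Mogat1 between 1.55 and 7.36.

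Libraries of the same number shared the highest or lowest place in both genotypes for several of these genes. Gpam and Acsl3 were lowest in library 2 of the knockout group and in library 2 of the control group. Lpin1 was highest in library 2 of each. This was not particular to number 2. Library 3 of each group was lowest for Lpin1 and Lpin2 and highest for Agpat3. Library 4 of each was lowest for Agpat3 and highest for Lpin3, and library 1 of each was highest for Acsl3. The share of all tested genes with such a pattern was not computed. Mogat1 did not share this, with the highest knockout value but the lowest control value in the libraries numbered 2. As a description without a test, after subtraction of the group means, the genes whose log2 CPM followed Mogat1 most closely over the 8 libraries, among 11762 genes with a mean of at least 1 CPM, were Coq2 (r = 0.99), Klhdc8b (0.98), Vdac1 (0.98), Adssl1 (0.98) and Eno1b (0.98). Their log2 fold changes were 0.20, −0.35, 0.08, −0.45 and 0.25, and of these 5 only that of Klhdc8b passed the test (adjusted p = 0.0301), which it missed under the block (0.054).

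Genes of the neighbouring steps were taken from 8 lists, which were chosen with earlier results of these data known. Their counts beside those of all genes are thus a description and not a test. Of 83 tested, 9 rose and 3 fell in knockout livers, where 3.51% and 1.88% of all tested genes did, with a median log2 fold change of 0.12. The total of 12 was 6 without control library 1, 7 without control library 2, 4 without knockout library 1, 6 without knockout library 2 and 5 without knockout library 3. Under total counts alone 7 rose and 6 fell, and under the block 11 rose and 2 fell. The block gave calls to 4 genes that did not pass in the genotype fit, named here for that reason after their values were seen. They were Gk, which phosphorylates glycerol (0.39, SE 0.09, adjusted p = 0.0376 under the block and 0.0789 without it), and Selenoi, an ethanolamine phosphotransferase (0.43, SE 0.08, adjusted p = 0.0236 and 0.0702). The others were the lysosomal lipase gene Lipa (0.35, SE 0.08, adjusted p = 0.0486 and 0.146) and the droplet coat gene Plin2 (0.50, SE 0.12, adjusted p = 0.0443 and 0.0581). Adjusted p under 0.05 held for Gpd2, Slc27a1, Tmem68 and Abhd5 in each of the 8 fits that left out 1 library.

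Supply of substrates showed changes in both directions. In fatty acid activation 1 of 13 rose and 1 fell (median 0.18). Acsl5, an acyl-CoA synthetase of liver and intestine, averaged 762 ± 44.6 CPM in knockout and 573 ± 68 CPM in control livers (0.41, SE 0.10, adjusted p = 0.0399, or 0.0707 under total counts alone). Of the 8 fits without 1 library, Acsl5 passed in the one without control library 3 and reached adjusted p-values up to 0.118 in the others. Slc27a1, a fatty acid transport protein, averaged 6.60 ± 1.14 CPM in knockout and 11.5 ± 0.97 CPM in control livers (−0.80, SE 0.14, adjusted p = 0.0133). In glycerol-3-phosphate supply 2 of 6 rose and 0 fell (median 0.41). Gpd2, the mitochondrial glycerol-3-phosphate dehydrogenase, had 113, 133, 132 and 128 CPM in knockout and 67.6, 85.7, 68.6 and 72.5 CPM in control libraries (0.78, SE 0.09, adjusted p = 0.00375). Its groups stood well apart. Aqp7, a glycerol channel best known from fat cells, had 36 to 100 counts in knockout and 2 to 15 counts in control libraries (2.50, SE 0.57, adjusted p = 0.0361, and 0.0685 under the block). The part of fat tissue in the Aqp7 value was not tested. Of the 8 fits without 1 library, Aqp7 passed in the one without knockout library 4 and reached up to 0.0815 in the others.

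Most other acyltransferase genes did not pass the test. Of 11 further glycerol-3-phosphate and lysophospholipid acyltransferase genes 0 rose and 0 fell (median 0.00), and of 5 phosphatase and phosphatase regulator genes likewise 0 and 0 (median −0.17). Among 5 other neutral lipid acyltransferases 1 rose and 0 fell (median 0.21), namely Tmem68, which encodes an enzyme able to make triglyceride independently of the DGAT enzymes. Tmem68 averaged 13.8 ± 1.04 CPM in knockout and 9.45 ± 0.537 CPM in control livers (0.55, SE 0.08, adjusted p = 0.00892). In the branch to phospholipids 1 of 21 rose and 1 fell (median 0.06). The gene that rose was Pgs1 of the cardiolipin pathway (0.47, SE 0.11, adjusted p = 0.047, but 0.0661 under the block and 0.0643 under total counts alone). The gene that fell was the phosphatidylserine synthase gene Ptdss2 (−0.34, SE 0.07, adjusted p = 0.0273, or 0.052 with the block). With 1 library left out, Pgs1 passed without control library 4 or knockout library 4 (otherwise up to 0.13) and Ptdss2 without control library 3 (otherwise up to 0.084).

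Triglyceride hydrolysis had 3 of 14 tested genes higher and 1 lower (median 0.20). Abhd5, the coactivator of the main triglyceride lipase, averaged 56.7 ± 4.79 CPM in knockout and 39.7 ± 3.08 CPM in control livers (0.52, SE 0.08, adjusted p = 0.0108). The gene of that lipase, Pnpla2, had a log2 fold change of 0.51 (SE 0.10, adjusted p = 0.0228). It did not pass without control library 1 (0.0634) or without knockout library 1, 2 or 3 (0.058, 0.0584 and 0.0695). Mgll, which cleaves monoacylglycerol, the substrate of MOGAT1, averaged 390 ± 73.9 CPM in knockout and 225 ± 24.3 CPM in control livers (0.79, SE 0.14, adjusted p = 0.0172). It did not pass without knockout library 1 or knockout library 3 (adjusted p = 0.0503 and 0.0576). Ces1g, a liver carboxylesterase, averaged 191 ± 30.4 CPM in knockout and 328 ± 57.1 CPM in control livers (−0.78, SE 0.14, adjusted p = 0.0184, and 0.0529 without knockout library 1). In lipid droplet formation at the endoplasmic reticulum 1 of 8 rose and 0 fell (median 0.44), which was Fitm2, a membrane protein needed for droplet budding (0.60, SE 0.12, adjusted p = 0.0271). Fitm2 did not pass without control library 1 or 2 (0.0754 and 0.0653) or without knockout library 1, 2 or 3 (0.074, 0.0544 and 0.0726).

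**Figure D5:**
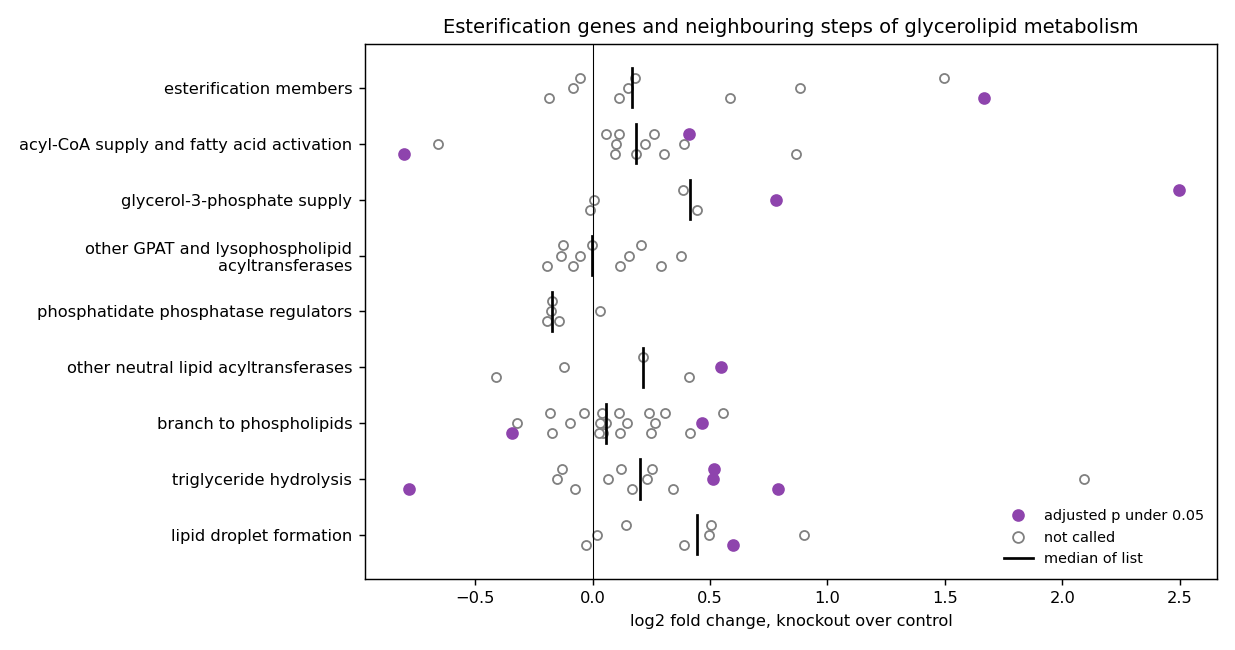
Log2 fold change of knockout over control (horizontal axis) for the 10 esterification genes and for the tested genes of 8 neighbouring lists, 1 point a gene, filled where the adjusted p is under 0.05, with the list median as a vertical line. The esterification genes have 1 filled point (Mogat1), triglyceride hydrolysis has 4, and the other glycerol-3-phosphate and lysophospholipid acyltransferases have 0.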

How the data were processed

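Liver RNA of 8 adult male mouse libraries was analysed, 4 knockout and 4 control. The kits were illustra QuickPrep (RNA) and NEBNext Ultra II (libraries), per the labels' protocols. The deposited values are the authors' unnormalised counts by gene symbol, beside each gene's length in bases, and library names in the labels tied columns to samples. The build was mm10, per the submitters' processing notes. For aligner, counter, annotation and strand setting the record is: not given in the sources used here.

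Genes were filtered with filterByExpr, which kept 14861 and left out 10378, scaled with TMM and tested with edgeR 4.0.16 (glmQLFit with robust estimation, glmQLFTest, Benjamini-Hochberg adjustment, threshold 0.05, 6 residual degrees of freedom) in R 4.3.3. Standard errors are the absolute log2 fold change over the square root of F. The fit was tested on simulated data. Log2 CPM used a prior count of 2. Ratios of 2 genes, free of library scaling, were tested with an exact permutation test over 70 assignments. Alternatives were total counts, RLE factors, DESeq2 1.42.0, no count filter, a replicate block and leaving out each library.

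Both groups carry replicate numbers 1 to 4, which the labels do not explain. With group means removed, the knockout and control library of number 1, 2, 3 and 4 had correlations over genes of 0.17, 0.39, 0.31 and 0.40. Each of the 8 correlated best with its own number, so blocked values are given where they change a call.

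The named genes are the 10 esterification genes, Zfp36l1, every gene of the 8 neighbouring lists past the threshold, and the 5 genes most like the member of lowest adjusted p. These genes and lists were chosen with earlier results of these data known. Positions and 3′ UTRs are from GENCODE M21 (GRCm38, the assembly of mm10), using basic protein-coding transcripts with the best APPRIS rank and then the greatest length. Promoters are RefSeq's (GRCm38.p6).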

Additional observations from a re-analysis of the deposited data

Results flagged for a closer look

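A library that stood apart from the other 3 of its group, by a gap taking most of the group's range, was found in 7 of 52 groups checked. Chance flags about 1 in 20 groups that are independent and normally distributed. The groups here share the same 8 libraries, include ratios of genes already checked, and include genes named because they passed the test. The 7 of 52 can thus not be set against that rate. Lpin1 had 808 CPM in knockout library 2, against 137 to 238 CPM in the other knockout libraries. Agpat2 had 164 CPM in knockout library 4, the lowest of a group whose others lay between 208 and 216 CPM. Lpin3 was lowest in control library 2 at 5.79 CPM, where the other controls had 7.86 to 8.23 CPM. Dgat2 was highest in control library 2 at 526 CPM, where the other controls had 462 to 472 CPM.

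Among the neighbouring genes, Slc27a1 was lowest in library 4 of both groups, with 4.90 CPM in knockout library 4 and 10.1 CPM in control library 4. Mgll was lowest among controls in library 3, at 189 CPM.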

How the results depend on the processing

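Directions of the 10 esterification genes held in all 13 alternatives except for Acsl3, whose log2 fold change ran from −0.166 to 0.0556 when 1 library was left out (0.004 without control library 1). The count of changed genes was 801, with 1730 under total counts alone, 1738 with DESeq2 and 211 to 967 without 1 library (303 without control library 1, 396 without control library 2, 256 without knockout library 1, 394 without knockout library 2, 211 without knockout library 3). Among the 10 genes it was 1, with 3 by DESeq2, 2 with the replicate block and 0 to 1 without 1 library. Among neighbouring genes it was 12, with 22 by DESeq2 and 4 to 14 without 1 library. Gpam had 0.89 with DESeq2 (adjusted p = 0.00109), 0.91 with the replicate block and 0.75 to 1.07 without 1 library. Lpin2 had 0.60 with DESeq2 (adjusted p = 0.0129), 0.56 with the block and 0.41 to 0.72 without 1 library. Mogat1 had 1.68 with the block and 1.47 to 2.01 without 1 library. The log2 ratio of Dgat2 over Dgat1 differed by 0.28 to 0.44 without 1 library and that of Agpat2 over Agpat3 by −0.195 to 0.0121. The cause of these shifts was not tested. The block also ended the calls of Aqp7, Ptdss2, Pgs1 and Klhdc8b, gave calls to Gk, Selenoi, Lipa and Plin2, and changed no other call among Zfp36l1, the tested list genes and the 5 genes most like Mogat1. With 69 to 491 counts per library, Mogat1 had the fewest counts of the 10, and Aqp7 had fewer still.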

Other observations

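Of 11 other liver genes that vary over the day or with feeding, chosen after values were seen and described without a test, 4 were highest in library 2 of both groups, as Lpin1 was (Pck1, Per1, Angptl4 and Tat). Ppargc1a, G6pc, Fkbp5, Pdk4, Srebf1, Arntl and Dbp were not, and Pdk4 was lowest among controls in library 2 (18.7 CPM). The share of all tested genes highest in library 2 of both groups was not computed. Angptl4, a fasting-induced inhibitor of lipoprotein lipase, had 121 CPM in knockout library 2 and 41.7 to 55.4 CPM in the other knockout libraries. Control library 2 had 113 CPM of Angptl4, where the other controls had 39.2 to 49.9 CPM. Per1, a clock gene that glucocorticoids also induce, had 23.0 CPM in knockout library 2 and 3.45 to 13.3 CPM in the other knockout libraries, with 23.8 CPM in control library 2 and 1.61 to 10.6 CPM in the other controls. On log2 CPM, 50 tested genes exceeded the next highest knockout library in knockout library 2 by as much as Angptl4 did, and 122 by as much as Per1. For Pck1 and Tat that lead was small, 0.13 and 0.02, and 2021 and 4518 tested genes had at least as much. The clock output gene Dbp ranged from 0.314 to 6.92 CPM over knockout and from 0.308 to 26.3 CPM over control libraries, highest in library 4 of each group.

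Srebf1, which encodes the SREBP1 regulator of lipid synthesis, had 400 CPM in knockout library 2 and 454 to 522 CPM in the other knockout libraries. Control library 2 had 503 CPM, within the 411 to 648 CPM of the other controls. Over groups it averaged 460 ± 49.9 CPM in knockout and 539 ± 104 CPM in control livers (log2 fold change −0.23, SE 0.14, adjusted p = 0.377). The labels give no feeding state or hour of collection, and their part in these values was not tested.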
